A study of Rattus norvegicus with 24 samples.

Results

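The dorsal striatum of rats killed 24 h after their last methamphetamine session was compared with that of yoked saline rats on 12 arrays of the 24 in the series, 6 per group. The arrays were chosen by their titles, and they lie on slides 2 and 3, each of which holds 3 arrays of either group. All rats were male Sprague Dawley animals with a stated weight of 375 ± 50 g. Their age is not given in the labels. METH rats took methamphetamine (METH), a stimulant that releases dopamine, by intravenous self-administration over 8 days, with 15 h sessions and 0.1 mg/kg in each injection. Yoked saline rats, by the usual meaning of the term, receive saline whenever a partner earns drug. Their time of death is not stated, and none of them is tied to a METH partner. The series title names transcription dependent on phosphorylated CREB, and the comparison asks which transcripts differ from yoked saline a day after drug taking ended.

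The dorsal striatum receives dense dopamine input from the midbrain. Most of its neurons are GABAergic projection neurons, which carry either the D1 dopamine receptor together with dynorphin and substance P, or the D2 receptor together with enkephalin. METH enters dopamine terminals and releases dopamine, and D1 receptor signalling through cyclic AMP leads to phosphorylation of CREB, which switches on activity genes such as Fos and Bdnf. Such transcripts typically peak within hours of a stimulus and decline again.

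Levels are background-corrected and quantile-normalized log2 signals of single probes on Illumina RatRef-12 arrays. They do not compare one probe with another. Each array carried 22523 probes, and the 9772 that 6 or more of the 12 arrays detected (p under 0.05) were tested, of which 7150 carry a gene name and stand for 7022 genes. Median raw intensity was 8.3 to 13.3 per array, 9375 to 10306 probes were detected per array, and correlations between arrays were 0.969 to 0.990. Markers of the dissected region were bright on all 12 arrays: Ppp1r1b, which encodes the projection neuron phosphoprotein DARPP-32, lay between 12.11 and 12.98, and the adenosine receptor gene Adora2a lay between 11.76 and 12.42 (both chosen after their values were seen). Of 11 tested genes of cerebral cortex, which borders the striatum, 8 were higher in METH rats and 0 passed. Their median was 0.13 (0.37 on slide 2 and -0.03 on slide 3), and their mean level was 6.24 to 7.12 on saline arrays and 6.47 to 7.17 on METH arrays. Differences were 0.53 for Cck, 0.32 for Emx2, 0.35 for Neurod6 and 0.29 for Satb1 (the last 2 chosen after their values were seen). The 3 lower members were Lamp5 (-0.12), Emx1 (-0.07) and Etv1 (-0.03). Replicate numbers are not in the labels and were given here in array order within each group. METH replicate 2 had the lowest array weight of the 12, at 0.48, where 1 would be average.

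Few transcripts passed the test. Of 9772 probes, 7 passed at an adjusted p of 0.05 (0.0716%), 3 of them higher (0.0307%) and 4 lower (0.0409%) in METH rats (limma, Benjamini-Hochberg adjustment). The 4 lower probes are haemoglobin genes, and the 3 higher ones are both probes of the ribosomal protein gene Rps9 and a probe without a gene name. Without adjustment, 399 probes (4.08%) had a p under 0.05, 213 higher (2.18%) and 186 lower (1.9%), where 489 would be reached by chance alone. The median difference over all 7022 genes was -0.002 on the log2 scale, 3466 of them were higher in METH rats, and 5 named genes passed (0.0712%).

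Haemoglobin transcripts were lower in every METH rat than in any saline rat. Haemoglobin, the oxygen carrier of red cells, is a tetramer of alpha chains (Hba genes) and beta chains (Hbb genes). Its transcripts are most abundant in immature red cells, and they have also been described in some neurons and glia. The 4 genes are near-identical to their neighbours in the alpha and beta gene clusters, so a probe may also read a neighbouring copy. The 250 bases upstream of each gene's start are shown because all 4 genes were lower in METH rats and lie in 2 clusters. These stretches lie at chr10:15842581-15842830 for Hba-a1, chr10:15816944-15817193 for Hba-a3, chr1:167663722-167663971 for Hbb and chr1:167643521-167643770 for Hbb-b1 (RefSeq, GRCr8, minus strand in each case). They are written 5′ to 3′, and capitals mark matches on either strand to the CCAAT box (searched as CCAAT), the TATA box (searched as TATAAA), the CACCC box (searched as CCACCC) and a GATA factor motif (searched as AGATAA), all known from globin and other promoters.
Hba-a1: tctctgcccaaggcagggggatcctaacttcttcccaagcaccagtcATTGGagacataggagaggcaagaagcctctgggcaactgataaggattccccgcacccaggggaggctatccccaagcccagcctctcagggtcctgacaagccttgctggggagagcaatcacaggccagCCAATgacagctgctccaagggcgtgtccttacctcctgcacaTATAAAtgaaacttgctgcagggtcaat
Hba-a3: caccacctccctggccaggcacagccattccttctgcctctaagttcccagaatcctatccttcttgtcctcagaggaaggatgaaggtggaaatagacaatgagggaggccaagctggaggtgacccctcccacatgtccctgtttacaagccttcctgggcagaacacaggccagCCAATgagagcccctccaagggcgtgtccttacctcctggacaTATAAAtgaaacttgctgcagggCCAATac
Hbb: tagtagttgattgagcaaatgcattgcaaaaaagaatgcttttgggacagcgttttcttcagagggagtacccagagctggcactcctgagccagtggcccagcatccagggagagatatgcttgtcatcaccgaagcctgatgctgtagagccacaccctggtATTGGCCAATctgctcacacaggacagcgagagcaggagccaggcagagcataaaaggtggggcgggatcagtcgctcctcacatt
Hbb-b1: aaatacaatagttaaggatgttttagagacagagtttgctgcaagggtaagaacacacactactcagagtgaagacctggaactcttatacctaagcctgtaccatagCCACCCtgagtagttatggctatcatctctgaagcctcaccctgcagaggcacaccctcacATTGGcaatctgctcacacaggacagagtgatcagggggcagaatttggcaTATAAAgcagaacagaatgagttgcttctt
CCAAT occurred 2 times in Hba-a1, Hba-a3 and Hbb and 1 time in Hbb-b1, and 34% of the 33469 rat promoter windows of this length hold it. TATAAA occurred 1 time each in Hba-a1, Hba-a3 and Hbb-b1 and 0 times in Hbb, against 12.9% of all windows; it was added to the search after these 4 windows had been read. CCACCC occurred 1 time, in Hbb-b1 (26.1% of all windows), and AGATAA in 0 of the 4 (10.3%). Only these exact letters were searched. Other spellings of a box were not, so a window without a match may still hold one. The Hba-a1 and Hba-a3 windows shared a stretch of 53 bases with 1 mismatch, which begins 58 and 60 bases before their starts, and Hbb and Hbb-b1 shared one of 23 bases with 1 mismatch. The longest such stretch between an alpha and a beta gene was 11 or 12 bases. These matches describe the letters and were not tied to the arrays' values.

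Hbb-b1, a beta chain gene, had levels of 9.50 (lowest), 10.03 (median) and 10.89 (highest) in saline rats and of 7.64, 8.48 and 8.82 in METH rats. The groups did not overlap, and the highest METH array was clearly under the lowest saline array. Hbb-b1 fell by 1.78 on the log2 scale, from 10.08 ± 0.49 to 8.30 ± 0.48 (SD, n = 6 each), a 3.43-fold difference (limma, adjusted p = 0.00491). Hbb, the other beta chain gene, lay at 11.06, 11.75 and 12.49 in saline rats and at 9.29, 9.94 and 10.95 in METH rats. The gap between the groups was narrow, because METH replicate 6 came close to the lowest saline array, saline replicate 1. Hbb fell by 1.73, with a standard error of 0.26 (limma, adjusted p = 0.0265).

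Of the alpha chain genes, Hba-a1 lay at 11.78, 12.15 and 13.06 in saline rats and 10.03, 10.42 and 11.42 in METH rats. Again no METH array reached a saline array, and METH replicates 3 and 6 were the highest of their group. Hba-a1 fell by 1.64, with a standard error of 0.26 (limma, adjusted p = 0.0342). Hba-a3 was near background, at 5.58, 6.40 and 7.13 in saline rats and 4.56, 4.79 and 5.41 in METH rats. It was detected on all 6 saline arrays but only on 2 METH arrays. The saline arrays, where it was higher, were therefore enough for it to meet the filter of 6 arrays. With detection required on all 12 arrays it was not tested. Hba-a3 fell by 1.51 (limma, adjusted p = 0.00826), a size that background limits and that ran from -3.18 with a floor at 1 and no normexp, where it did not pass (adjusted p = 0.151), to -0.91 with offset 50. The probe of Hba-a2, shown although it was not tested, lay near background on all 12 arrays, between 4.51 and 4.83.

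The haemoglobin difference was present on both slides. On slide 2 alone Hbb-b1 differed by -1.90, Hbb by -1.90, Hba-a1 by -1.73 and Hba-a3 by -1.50. On slide 3 alone the values, in the same order of genes, were -1.65, -1.55, -1.54 and -1.52. None of the 4 passed on slide 2 alone (adjusted p 0.156 to 0.673) or on slide 3 alone (0.136 to 0.805), each with 3 arrays a group. A two-sided exact permutation test within slides gave each gene p = 0.005, the smallest of 400 arrangements. This value restates that the groups do not overlap within either slide and is not adjusted for the choice of these genes. Over all probes, 10 had every METH array below every saline array (0.102%), the 4 haemoglobin probes among them. In whole tissue, fewer cells of a type and less RNA per cell cannot be told apart. Hbb-b1 and Hba-a3 stayed past the threshold whichever single array was left out. Hbb did not pass without METH replicate 1, 2 or 4 or saline replicate 2, 3, 5 or 6 (adjusted p 0.059 to 0.123), and Hba-a1 did not without METH replicate 1, 2, 4 or 5 or saline replicate 1, 2, 3, 5 or 6 (adjusted p 0.070 to 0.152). Without METH replicates 2 and 3, the METH arrays of lowest weight, Hbb-b1 passed and the other 3 genes did not (limma, adjusted p 0.0727 for each). With no filter on dim probes none of the 4 passed (0.149 to 0.571), and a trended, robust spread ended the calls of Hbb (0.358) and Hba-a1 (0.382).

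**Figure D1:**
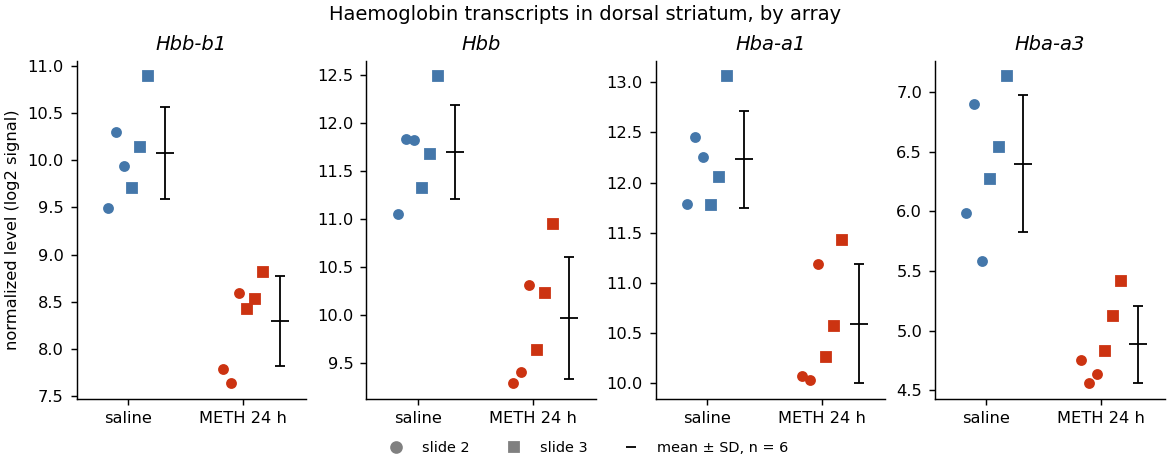
Normalized log2 signal of the 4 haemoglobin genes on each array, with saline in blue and METH in red, slide 2 as circles and slide 3 as squares, and mean ± SD (n = 6) beside each group. In each panel all 6 METH arrays lie below all 6 saline arrays, and each panel has its own axis.

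No other red cell transcript passed. Of 14 tested genes of the red cell membrane and haem synthesis, 0 rose and 0 fell, and their median difference was -0.03. Gypc, which encodes glycophorin C of the red cell membrane, lay at 5.43, 5.58 and 5.70 in saline rats and 5.09, 5.38 and 5.86 in METH rats, with overlap and a difference of -0.15 (limma, adjusted p = 0.997). Epb42, a protein of the red cell skeleton, differed by -0.12 and was detected on 5 saline and 3 METH arrays. Pf4, a platelet chemokine, differed by -0.03 and lay between 4.95 and 5.82 on saline arrays. Gypc, Epb42 and Pf4 were all dim, so background limits the size of any difference at these probes. Of 26 platelet and leukocyte markers 20 had a named probe, and of these only Pf4 was bright enough to be tested.

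Transcripts of the choroid plexus, a secretory tissue inside the ventricles, varied widely between rats of both groups. Ttr, which encodes the plexus protein transthyretin, ran from 7.55 to 12.12 in saline rats (median 9.23) and from 6.02 to 12.49 in METH rats (median 7.68). Saline replicates 2 and 6 and METH replicate 6 were the high arrays, and the groups overlapped. The difference was -1.31 with a standard error of 1.02 (limma, adjusted p = 0.997), and it was -0.72 without saline replicate 2 or without METH replicate 4 and -2.16 without METH replicate 6. Of 10 tested plexus and ependyma genes, 9 were lower in METH rats, 0 passed, the median was -0.07, and the mean level of the list was 7.16 to 8.12 on saline arrays and 6.90 to 8.25 on METH arrays. Saline replicate 6 and METH replicate 6, each the highest of its group for Hbb and Hba-a1, were among these high arrays, and the part of plexus tissue in the haemoglobin difference was not tested.

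The higher calls came from probes with 2 separate signal levels. Rps9 encodes a protein of the small ribosomal subunit. Its probe ILMN_2038795 lay between 5.76 and 6.40 on the saline arrays, at 5.96 on METH replicate 5, and between 9.73 and 10.05 on the other 5 METH arrays. Its probe ILMN_2038796 lay between 8.58 and 9.02 on the saline arrays, at 8.82 on METH replicate 5, and between 10.39 and 10.62 on the others. The same 5 METH rats were high at both probes, METH replicate 5 was within the saline range at both, and no array lay between the levels. The mean differences were 3.22 (limma, adjusted p = 0.035) and 1.46 (adjusted p = 0.0459), with two-sided exact permutation p of 0.015 and 0.01 within slides, not adjusted for their choice.

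ILMN_1365113, a probe without a gene name, followed the same pattern. It lay between 6.59 and 7.37 on the saline arrays, at 7.20 on METH replicate 5 and between 10.25 and 10.31 on the other METH arrays, a mean difference of 2.69 (limma, adjusted p = 0.0265). A further unnamed probe, ILMN_1353766, chosen after its values were seen, was near background (4.50 to 4.79) on 7 arrays and between 7.49 and 8.05 on the same 5 METH arrays. It was detected on 5 arrays and so was not tested. These 4 probes were the only ones on the array at which those 5 METH arrays lay more than 1 log2 unit above all other 7, and 0 probes showed the opposite.

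On slide 1, which carries the 2 h groups, the same probes ran the other way. ILMN_2038795 was at 4.61 on 1 saline array and between 8.53 and 9.38 on the other 5, and at 10.0 on 1 METH array and between 4.58 and 5.01 on the other 5 (24 arrays normalized together). The arrays again fell on 2 levels, this time with saline mostly high. None of the 3 higher probes stayed past the threshold when any single array other than METH replicate 5 was left out (adjusted p 0.059 to 0.193). Of 56 tested ribosomal protein genes, Rps9 alone rose, 0 fell, and the median difference was 0.04.

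**Figure D2:**
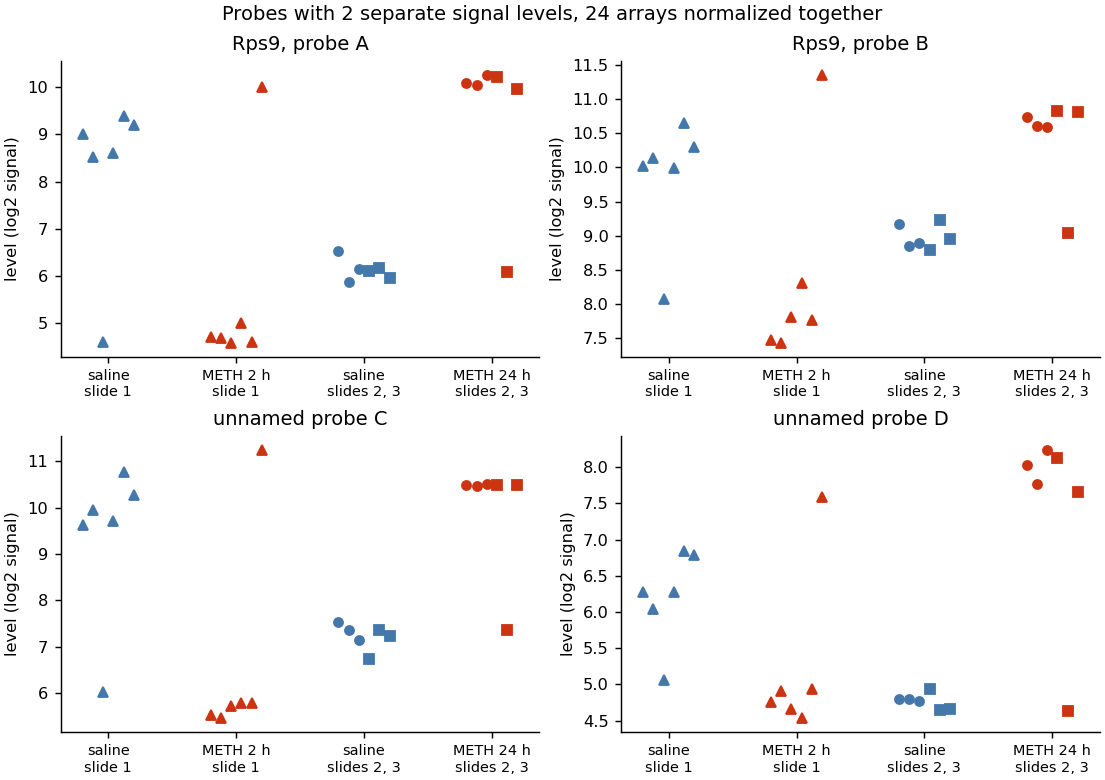
Log2 signal of both Rps9 probes (A, ILMN_2038795; B, ILMN_2038796) and of 2 unnamed probes (C, ILMN_1365113; D, ILMN_1353766) on all 24 arrays, with saline in blue, METH in red and slides 1, 2 and 3 as triangles, circles and squares. On slides 2 and 3, 5 METH arrays sit at the upper level and METH replicate 5 with the saline arrays, while on slide 1 most saline arrays are high.

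No immune gene passed the threshold. In each of 5 immune lists more members were higher than lower in METH rats, mostly by small amounts. The share was lowest for cytokines and chemokines (7 of 11). Some complement proteins tag synapses and debris for removal, and others inhibit the system. Of 11 tested complement genes, 11 were higher, 0 passed, and the median difference was 0.35. The inhibitors Cd59b (0.35) and Serping1 (0.23) were among the 11. C2, which encodes a protease of the classical pathway, lay at 7.11, 7.31 and 7.60 in saline rats and at 7.69, 7.92 and 9.28 in METH rats. All METH arrays were above all saline arrays, with METH replicate 2 far above the rest. Its difference was 0.85 with a standard error of 0.22 (limma, adjusted p = 0.823), and over all probes 8 (0.0819%) had every METH array above every saline array. C1qb, a chain of the recognition molecule C1q, differed by 0.53 (limma, adjusted p = 0.997), and the other chains, C1qa and C1qc, differed by 0.49 and 0.42 (both chosen after their values were seen).

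Microglia, the resident macrophages of the brain, express some complement components, among them C1q. Of 26 tested microglial genes 23 were higher, 0 passed, and the median was 0.13. Clec4a3, a lectin receptor of myeloid cells, lay at 4.96, 5.06 and 5.17 in saline rats and 5.19, 5.44 and 5.73 in METH rats, without overlap (1 of the 8 such probes, 0.0819% of all tested). Its difference of 0.41 had a standard error of 0.09 and did not pass (limma, adjusted p = 0.572), and it was detected on 4 of 6 saline arrays. Creg1, a lysosomal glycoprotein, was at 5.95, 6.42 and 6.69 in saline rats and 6.69, 6.75 and 6.87 in METH rats, a difference of 0.40 (limma, adjusted p = 0.821). Fcgr3a, an Fc receptor, differed by 0.44, and Tyrobp and Aif1, an adaptor and a cytoskeletal marker of microglia named after their values were seen, differed by 0.38 and 0.35. These named genes lie above the median of the list. The 3 lower members were Cx3cr1 (-0.10), Adgre1 (-0.06) and P2ry13 (-0.01), and Trem2 differed by 0.03.

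Genes of antigen presentation and interferon response were less even. Of 19 tested antigen presentation genes 14 were higher and 0 passed, with a median of 0.09. Cd74, the invariant chain of MHC class II, ran from 4.95 to 5.66 in saline rats and from 4.83 to 7.26 in METH rats (medians 5.04 and 6.01). METH replicates 1, 2 and 5 lay above every saline array and METH replicate 4 below them all. RT1-Da, an MHC class II chain, differed by 0.81, and B2m, the light chain of MHC class I, by 0.37 (limma, adjusted p = 0.997 for each). Of 14 interferon response genes 12 were higher and 0 passed, with a median of 0.13 and a range from -0.67 to 0.78, the highest being the chemokine gene Ccl5. Of 11 cytokine and chemokine genes 7 were higher and 0 passed, with a median of 0.02 (0.001 without METH replicate 2), close to that of all genes.

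METH replicate 2 had the highest mean level of the complement, microglia, antigen presentation and interferon lists. Without it the median difference was 0.24 for complement, 0.085 for microglia, 0.0005 for antigen presentation and 0.064 for interferon response. On slide 2 and slide 3 alone it was 0.51 and 0.18 for complement, 0.17 and 0.10 for microglia, 0.17 and 0.01 for antigen presentation, and 0.23 and 0.10 for interferon response. The mean level of the complement list was 6.30 to 6.81 on saline arrays and 6.68 to 7.56 on METH arrays, with 4 METH arrays above all saline arrays. With the cytokine list, the 5 lists hold 81 tested genes, of which 67 were higher in METH rats, 14 were lower and 0 passed. Of the 81, 24 had an unadjusted p under 0.05 in the higher direction, beside 163 of all 7022 genes (2.32%). Genes of these lists were chosen with results of these arrays known, and their levels move together from array to array.

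**Figure D3:**
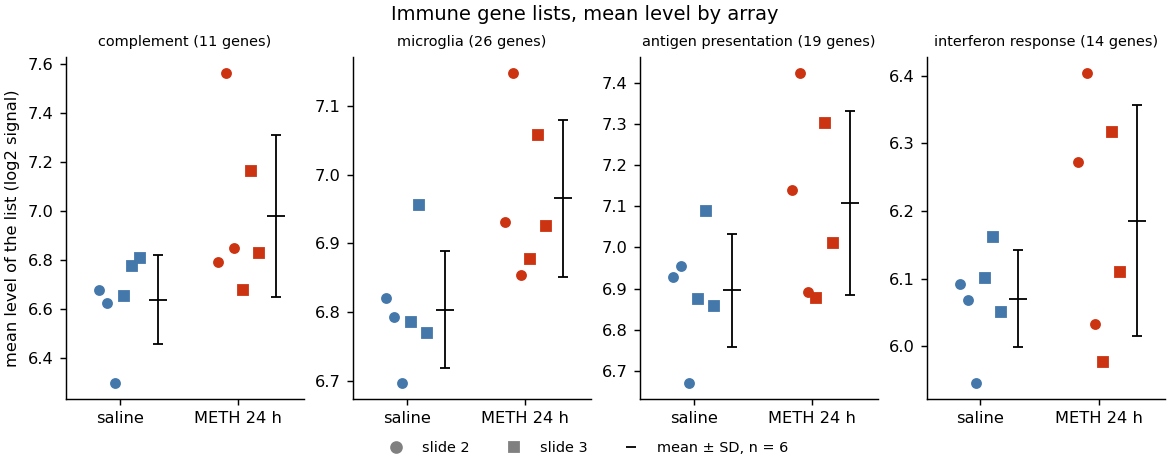
Mean log2 signal of the tested genes of 4 immune lists on each array, with saline in blue, METH in red, slide 2 as circles, slide 3 as squares and mean ± SD (n = 6) beside each group. The groups overlap in every panel, and the highest array of each is METH replicate 2.

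Astrocyte genes were divided. Of 21 tested, 14 were higher and 0 passed, with a median of 0.08. The 7 lower members included Aqp4 (-0.16), Fgfr3 (-0.14), Cspg5 (-0.12) and Gja1 (-0.10). Ndrg2, an astrocyte-enriched gene, lay at 11.96, 12.18 and 12.36 in saline rats and at 12.32, 12.53 and 12.64 in METH rats, with 5 of 6 METH arrays above all saline arrays and a difference of 0.36 (limma, adjusted p = 0.704). Aldoc, a glycolytic enzyme of astrocytes, differed by 0.33, the metallothionein gene Mt1 by 0.62, and the calcium-binding protein gene S100b, named after its value was seen, by 0.27. Gfap, the intermediate filament of reactive astrocytes, ran from 10.12 to 10.94 in saline rats and from 10.13 to 11.21 in METH rats and differed by 0.13 with a 95% interval from -0.23 to 0.49. The median of the list was 0.034 without METH replicate 2. Leaving out any 1 array gave medians from 0.033 (without METH replicate 5) to 0.116 (without saline replicate 4).

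Genes that respond to neuronal activity showed no difference that passed. Fos, the immediate early gene most used as a sign of recent firing, lay at 4.65, 5.29 and 5.68 in saline rats and at 4.81, 5.25 and 5.65 in METH rats. The groups overlapped throughout, and the difference was 0.01 with a 95% interval from -0.36 to 0.37; the probe was dim, detected on 4 arrays of each group. Egr1, a zinc finger factor induced with it, differed by 0.14 (interval -0.09 to 0.37). Arc, whose product acts at active synapses, differed by 0.10 with a wide interval from -0.44 to 0.63, and by 0.61 on slide 2 and -0.42 on slide 3. Of 26 immediate early genes 19 were higher, 0 passed and the median was 0.07.

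CREB and its targets were likewise not distinguished from saline. Crem, a relative of CREB whose short forms repress the same sites, differed by -0.08 (interval -0.27 to 0.11), and its second tested probe by 0.002. Bdnf, a growth factor driven in part by CREB, differed by 0.12 (interval -0.16 to 0.40), and its receptor Ntrk2 by 0.07 (interval -0.35 to 0.49). Of 24 CREB pathway genes 8 were higher, with a median of -0.05, and of 25 CREB target and trophic genes 18 were higher, with a median of 0.07; 0 passed in either list. Creb1 had 2 probes and Th, the rate-limiting enzyme of dopamine synthesis, had 1, and none of these was bright enough to be tested. Fosb was not analysed here.

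Peptide and dopamine receptor genes of the projection neurons were bright and close between the groups. Penk, the enkephalin precursor of D2 neurons, lay at 12.05, 12.31 and 12.49 in saline rats and at 11.98, 12.58 and 12.72 in METH rats. Of 6 METH arrays 4 were above all saline arrays and METH replicate 2 was below them all, giving a difference of 0.19 (interval -0.07 to 0.45). Pdyn, the dynorphin precursor of D1 neurons, differed by 0.18 (interval -0.07 to 0.42), and Tac1, the substance P precursor, by 0.09. Drd1 and Drd2, the main dopamine receptors, differed by 0.02 (interval -0.21 to 0.24) and 0.08 (interval -0.10 to 0.26). Of 35 projection neuron genes 17 were higher and 0 passed, with a median of -0.01; of 27 neuropeptide genes 22 were higher and 0 passed, with a median of 0.12.

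In the joint fit of all 24 arrays 7 of 10354 probes passed at 2 h (0.0676%), 4 of them named and 3 unnamed, and 0 of these 7 passed at 24 h. Nmu, which encodes the peptide neuromedin U, differed by 1.44 at 2 h and by 0.22 at 24 h. Nts, the neurotensin precursor, differed by 1.28 and -0.12, Fst, the activin-binding follistatin, by 0.99 and 0.25, and Pnoc, the nociceptin precursor, by 0.91 and 0.10. The unnamed probes ILMN_1366254, ILMN_1365953 and ILMN_1351218 differed by -0.72, 0.96 and 0.65 at 2 h and by -0.11, 0.01 and -0.08 at 24 h, and were chosen with these values known. The 2 h arrays and their saline arrays lie on slide 1, and the 24 h arrays and theirs on slides 2 and 3. Time and slide therefore cannot be told apart in this comparison. The difference between the times did not pass for any of the 10354 probes of that fit (0 called, 0%), and 503 had an unadjusted p under 0.05 (4.86%). For Nmu it was -1.22 (limma, adjusted p = 0.0759), and with arrays weighted by quality it passed (adjusted p = 0.0322), together with both Rps9 probes and ILMN_1365113. For haemoglobin the effects at 2 h and 24 h were -0.40 and -1.80 for Hbb-b1 and -0.29 and -1.69 for Hba-a1 (adjusted p of the difference 0.326 and 0.587).

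**Figure D4:**
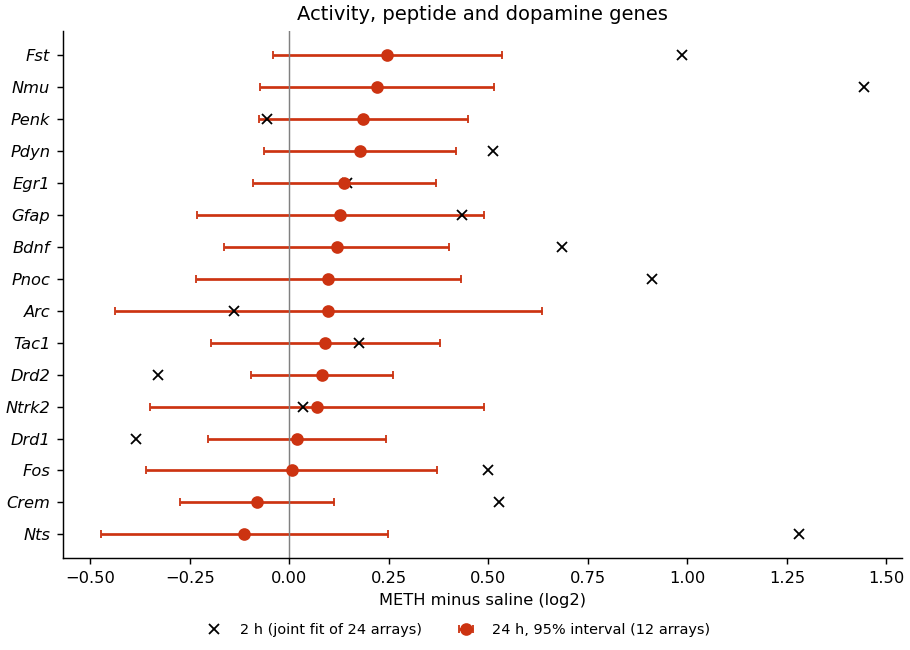
Difference between METH and saline at 24 h (red, with 95% interval, from the fit of 12 arrays) and at 2 h (cross, from the joint fit of 24 arrays) for 16 genes of the study question and of the 2 h calls, on the log2 scale. For these 16 genes every interval at 24 h includes 0, and Nmu and Nts have the highest values at 2 h among them.

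The remaining genes of lowest p did not pass either. In the lower direction they were Tnni3, which encodes cardiac troponin I (-0.47; limma, adjusted p = 0.505), Cygb, the globin cytoglobin (-0.40; 0.572), Slc7a10, a transporter of small neutral amino acids (-0.39; 0.658), Kcnip4, a potassium channel partner (-0.44; 0.823), Pnlip, a lipase (-0.31; 0.823), and Atg5 of the autophagy machinery (-0.37; 0.992). Tnni3 and Kcnip4 had all METH arrays below all saline arrays, as did 10 of 9772 probes in all (0.102%), and both were picked for their low p. Cygb, a globin of fibroblasts and some neurons, lay at 6.94, 7.06 and 7.30 in saline rats and at 6.43, 6.68 and 6.95 in METH rats, with 5 of 6 METH arrays below all saline arrays. In the higher direction, beside those already given, were Sh3bgr (0.49), Pxmp4, a peroxisomal membrane protein (0.41), Pank1, an enzyme of coenzyme A synthesis (0.33), and the matrix protein fibronectin, Fn1 (0.55).

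Stress, metabolic and structural lists held no gene that passed. Of 30 amino acid and ER stress genes 23 were lower, with a median of -0.05, among them Hspa5, the ER chaperone BiP, at -0.25, and Ddit4, a stress-induced inhibitor of mTOR, at -0.29. Of 20 hypoxia genes 15 were lower, with a median of -0.06, and Vegfa, the vascular growth factor, differed by -0.22. Of 12 clock genes 8 were lower, with a median of -0.03, and Nr1d1, a repressor of the clock, differed by -0.28 with 5 of 6 METH arrays below all saline arrays. Oligodendrocyte genes had a median of -0.04 over 26 and oxidative phosphorylation genes of 0.01 over 54. Across the 38 lists, haemoglobin and the ribosomal proteins were the only ones with a gene past the threshold.

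**Figure D5:**
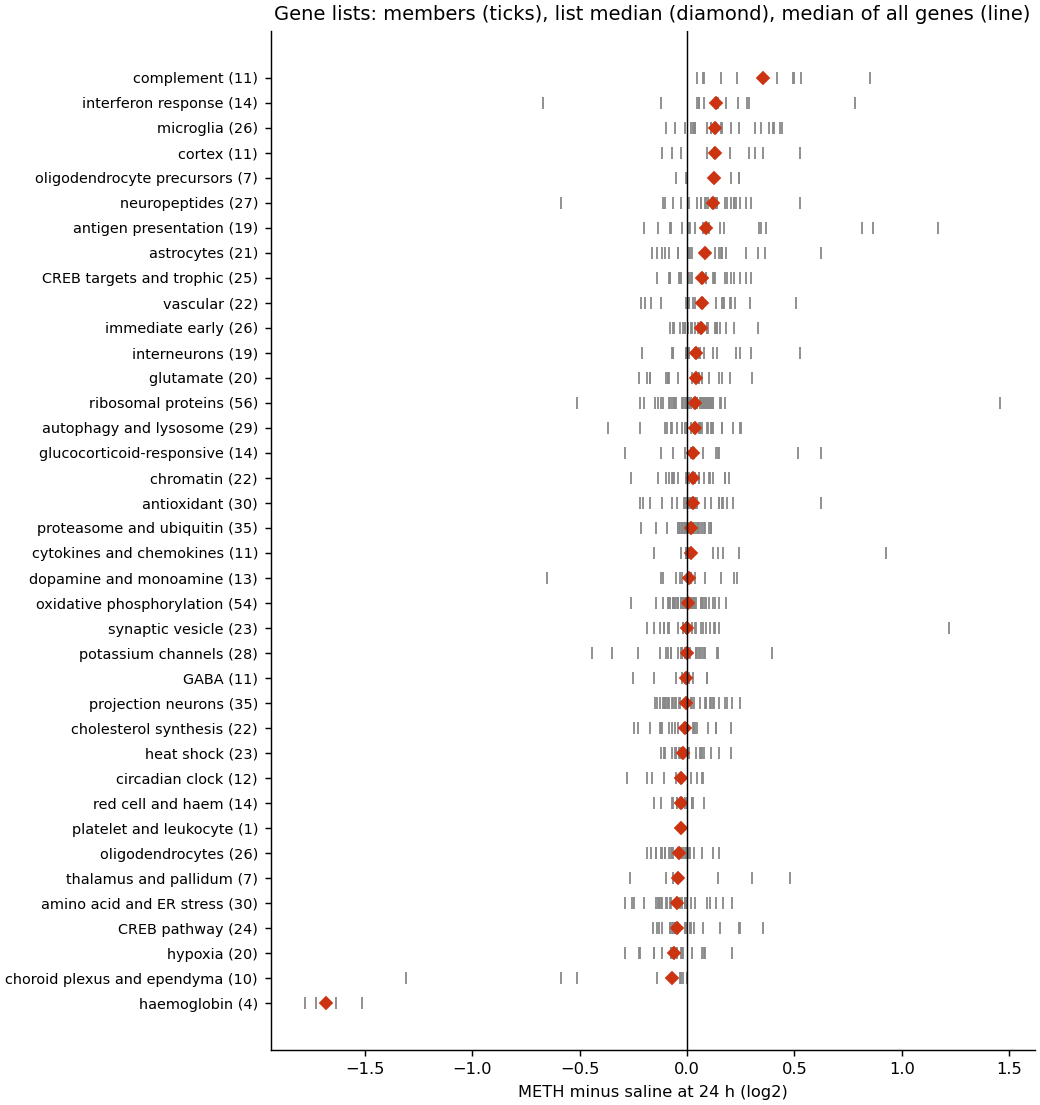
Difference between METH and saline at 24 h on the log2 scale for every tested gene (tick) of 38 lists, with the list median (diamond), the number of tested genes in brackets and the median of all 7022 genes (line). The 4 haemoglobin genes stand at -1.78 to -1.51, and the median of every other list lies between -0.07 and 0.35.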

How the data were processed

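RNA of each rat was amplified, labelled with biotin and hybridized to a 1-colour array, per the labels' protocols. The authors deposited probe intensity, already background-subtracted since 26.4% to 28.8% of values lie below 0, a detection score per probe, and a table of log2 values, which equals log2 of the intensity floored at 1 minus each probe's median (to 1.98e-06). The deposited scores stand in another probe order, so they were assigned by rank within each array. The scanner software was not given in the sources used here. Here, limma 3.58.1 in R 4.3.3 (neqc, offset 16, quantile) normalized the 12 arrays alone. Probes detected on 6 arrays were fitted with slide and group (lmFit, eBayes), with Benjamini-Hochberg adjustment over all of them; the scripts were tested on simulated data. Names came from the platform annotation updated through RefSeq (GRCr8), which matched 13757 probes; 8730 have none. P-values measure the spread between arrays, taken as separate rats, and their number limits the precision. Named were genes past the threshold, the 10 of lowest p in each direction, genes of the study question and up to 3 of lowest p per list; members and lists were chosen with earlier results of these data known. Alternatives changed normalization, background, filter, slide term, spread, weights, position and arrays.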

Additional observations from a re-analysis of the deposited data

Results flagged for a closer look

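Of 276 groups of 6 arrays examined, 17 had an array far from the other 5 by Dixon's test, and chance flags about 1 in 20. METH replicate 5 was the low array at 7.20 for ILMN_1365113, at 5.96 and 8.82 for the Rps9 probes ILMN_2038795 and ILMN_2038796, and at 4.50 for ILMN_1353766. METH replicate 2 was low for Sv2b, a synaptic vesicle protein (11.79), for Penk (11.98) and for Grin2c, an NMDA receptor subunit (6.50), and high for Tnr, the matrix protein tenascin-R (7.93). METH replicate 3 was low for the potassium channel subunit gene Kcnab1 (7.13) and for Atf1, a relative of CREB (5.15). METH replicate 6 was high for Igf2 (10.19). Among the saline arrays, replicate 5 was high for Drd2 (8.48) and the co-chaperone gene Bag3 (7.32), replicate 3 was high for the kainate receptor gene Grik2 (7.43), replicate 2 was high for Cd74 (5.66), and replicate 1 was low for Sparc (7.86) and Kit (5.24).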

How the results depend on the processing

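The haemoglobin genes were lower in METH rats under all 30 alternatives, wherever they were tested. The count of 7 probes was 7 with cyclic loess, without a slide term and with slide as a random block, 6 with median scaling, in both forms of the deposited log2 values and with detection on all 12 arrays, and 5 with slide position or all 24 arrays (1 higher in each). With all 24 arrays the higher probe was ILMN_1353766, and 0 of the 3 higher calls of the main fit passed. The count was 4 with offset 50 (1 higher), 4 with array weights (0 higher), 2 with a trended, robust spread (0 higher, 2 lower), and 1 with a floor at 1 and no normexp (0 higher, 1 lower). It was 0 with no filter on dim probes (0 higher, 0 lower; limma, 959 at an unadjusted p under 0.05), 3 on slide 2 alone (0 lower) and 1 on slide 3 alone (0 higher, 1 lower, Mrps10). Leaving out 1 array gave 2 to 6 probes, 0 to 3 higher and 2 to 4 lower. Chosen after seeing the data, detection on 5 arrays gave 8, and leaving out METH replicates 2 and 3 gave 1 (0 higher, 1 lower). Of the haemoglobin genes, Hba-a1 lost its call with offset 50, Hbb and Hba-a1 with a trended spread, Hbb, Hba-a1 and Hba-a3 with a floor at 1, and all 4 with no filter or on 1 slide. The difference between the times gave 0 probes, and 4 with array weights. The cause of these changes was not tested, beyond the fewer arrays or more probes of some settings. No paired analysis was possible because the labels carry no replicate numbers and tie no saline rat to a METH rat. Dim probes such as Hba-a3 are limited by background.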
